A study of Mus musculus with 6 samples.

Results

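The genes described here are 40 host genes that mark endothelial cells, the lining of blood and lymph vessels, or that act in the growth of new vessels. They were taken by symbol from the mouse count table of the series, which holds 55536 named genes, and all 40 were found there. The RNA came from tumours of DU145, an established human prostate cancer line, grown under the skin of male nude mice. Vessels of such a tumour are built by the host, so their transcripts are read in the mouse table, while the human table is meant for the tumour cells. A control group of 3 tumours was compared with a group of 3 tumours from mice given Zelnorm (tegaserod, a serotonin receptor agonist) by mouth each day. The sample titles write MBZ for the treated group, which the series' own design text ties to Zelnorm. The labels give no dose, no batch and no names of animals, and nude mice lack a normal thymus and its T cells but keep other immune cells and their vessels. Libraries are named by their columns, NC10, NC4 and NC9 for control and MBZ_254, MBZ_257 and MBZ_259 for Zelnorm. P-values measure the spread between these 6 samples.

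New vessels grow as sprouts. A tip cell at the front, driven by vascular endothelial growth factor (VEGF), carries the Notch ligand Dll4 and secretes Esm1, apelin (Apln) and angiopoietin 2 (Angpt2), and its followers form the stalk. Angpt1, made mostly by cells around the vessel, activates the receptor Tek (Tie2) and quietens the endothelium, and Angpt2 can oppose it. As vessels mature, arteries take up connexins and Sox17, veins carry Aplnr, von Willebrand factor (Vwf) and selectins, and lymph vessels are set by the factor Prox1.

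The mouse table held 5798713 to 9185239 counts per library in named genes, which was 15.1% (MBZ_257) to 23.4% (MBZ_254) of the counts of both tables. The 40 genes together held 0.199% (MBZ_257) to 0.388% (NC4) of the mouse counts. As a check of identity, 8 of 8 defining endothelial markers (Pecam1, Cdh5, Tie1, Tek, Emcn, Erg, Cldn5 and Kdr) had counts in every library, the lowest being 72. Of the 40 genes 38 passed the filter on low counts, with mean counts of 15.3 (Sele) to 2250 (Mcam) per library, and the lymphatic genes Prox1 and Mmrn1 did not. Levels are counts of the mouse table scaled to a common library size (CPM). In bulk tissue, fewer endothelial cells and less RNA per cell cannot be told apart.

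Zelnorm and control tumours were not separated by these genes. Of the 38 tested, 15 had a higher and 23 a lower mean in Zelnorm tumours, and the median of their log2 fold changes (Zelnorm over control) was -0.11, where all 14459 tested mouse genes had a median of 0.02 and 53.9% lay higher. None of the 38 passed the test (edgeR's quasi-likelihood test, Benjamini-Hochberg adjusted p under 0.05; 0% of all tested genes passed), and each had an adjusted p of 1 after rounding. At an unadjusted p under 0.05, 1 of the 38 lay lower, the angiopoietin receptor Tek, where 1.03% of all tested genes did, and 0 lay higher. In none of the 38 did the 3 Zelnorm libraries all lie on one side of the 3 control libraries, a separation that 5.52% of all tested genes showed. DESeq2 and limma-voom also called 0 of the 38. Standard errors (SE) ran from 0.17 to 0.50 on the log2 scale, so small differences were not detectable with 3 tumours a group. For single genes the log2 fold change is given with its SE and edgeR's unadjusted p. The balance of higher and lower genes rested on single tumours: 23 of 38 lay higher without NC4 and also 23 without MBZ_257, 10 without NC10, 7 without NC9 and 2 without MBZ_254.

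**Figure D1:**
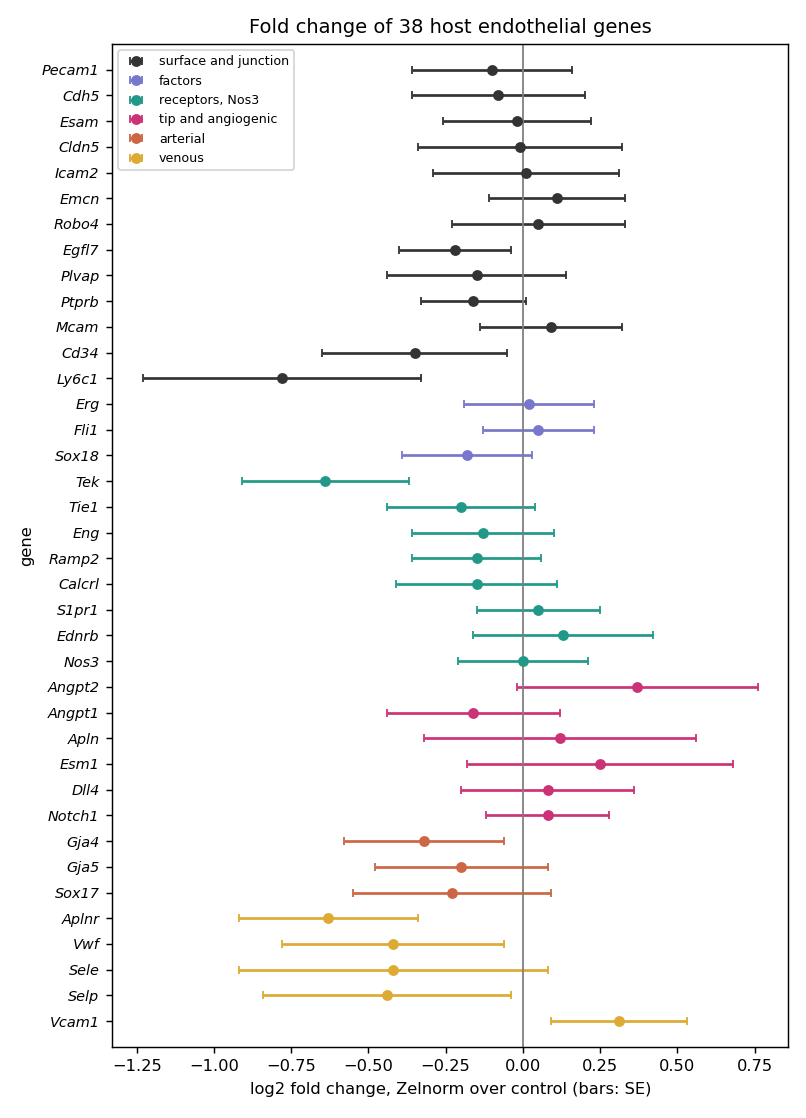
Log2 fold change of Zelnorm over control on the horizontal axis for the 38 tested genes, coloured by role, with bars of 1 SE from edgeR's quasi-likelihood fit (3 tumours a group). Most values lie within 1 SE of 0, with Ly6c1 (-0.78) and Tek (-0.64) lowest and Angpt2 (0.37) highest.

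The larger differences lay between tumours, whatever their group. Of the 24 general endothelial genes, those not assigned to tip, arterial, venous or lymphatic cells, 23 had their lowest level in MBZ_257, against 29.3% of all tested mouse genes. S1pr1 was the exception, lowest in NC10. The highest level of these 24 genes was in the control NC4 for 14, in the Zelnorm tumour MBZ_254 for 8 and in MBZ_259 for 2. A second list of 28 general endothelial genes, among them Cd93, Clec14a and Gimap4, showed a like order, with 20 lowest in MBZ_257, 13 highest in NC4 and 10 highest in MBZ_254. In 9 of these 28 the human gene of the same symbol had more counts than the mouse gene, so these 9 are uncertain as host signals.

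**Figure D2:**
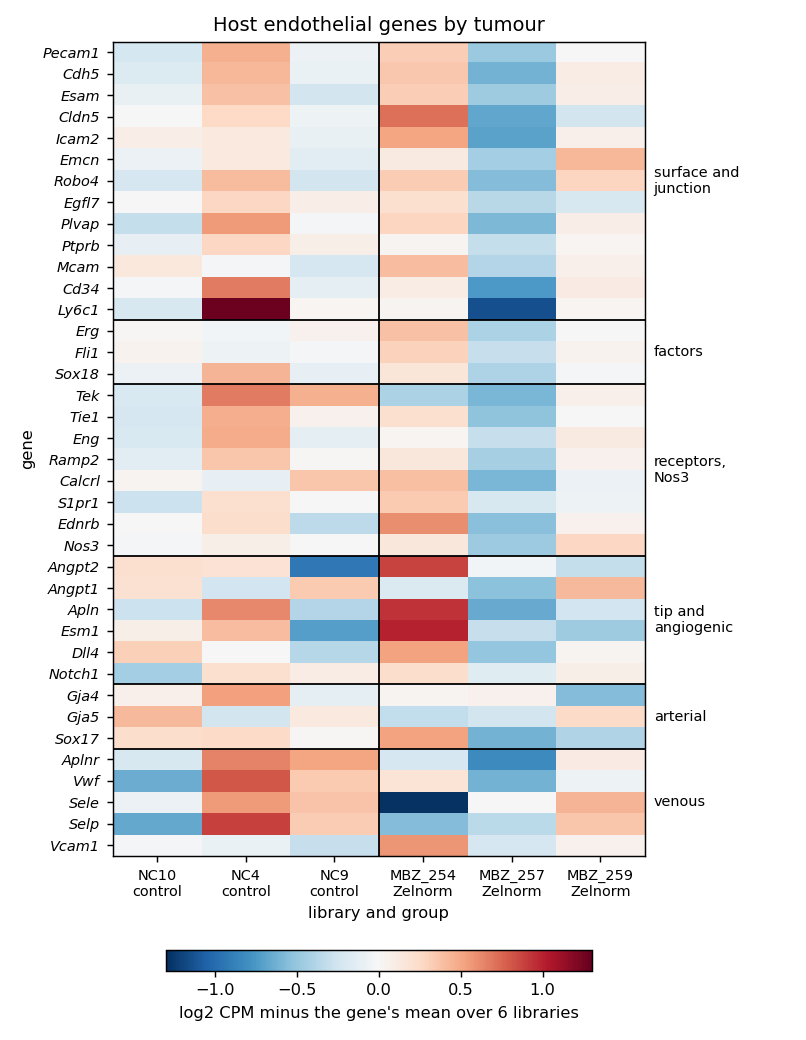
Colour gives each gene's log2 CPM in a library minus its mean over the 6 libraries, with genes grouped by role and libraries by group. NC4 and MBZ_254 are the high libraries for most general endothelial genes and MBZ_257 the low one, and Angpt2, Apln and Esm1 are highest in MBZ_254.

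Markers of other host cells also differed between tumours, but not all in the order of the endothelial genes. The summed level of 10 fibroblast markers was 42500 CPM in NC4, 13500 CPM in MBZ_257 and 25600 to 31400 CPM in the other libraries, with 9 of its 10 genes lowest in MBZ_257. Summed over 11 pericyte and smooth muscle markers, the level ran from 1460 to 1940 CPM in control and from 1490 to 2140 CPM in Zelnorm tumours, with its highest value in MBZ_254. Of these 11, 7 lay higher and 4 lower, and 2 (Tagln and Higd1b, both higher) did not overlap between the groups. Cspg4 and Notch3 (10300 human and 1430 mouse counts per library) had more human than mouse counts, so they are uncertain as host signals. The summed level of 10 macrophage markers was 4760, 4270 and 3640 CPM in NC10, NC4 and NC9. It was 4770, 5110 and 5010 CPM in MBZ_254, MBZ_257 and MBZ_259. The 3 Zelnorm tumours thus lay above the 3 controls, by a narrow margin between NC10 and MBZ_254. Of these 10 markers 4 (Adgre1, Lyz2, C1qb and C1qc) did not overlap between the groups, where 5.52% of all tested genes did not, and none passed the test. Lyz2 was the largest part of the sum, at 1300 to 1780 CPM in control and 1830 to 2320 CPM in Zelnorm tumours. Without Lyz2 the sums overlapped, with NC10 above MBZ_254. Of the 10, 8 lay higher and 2 lower, namely Csf1r (log2 -0.12) and Mrc1 (log2 -0.11). Red cell markers (5 tested) reached 1780 CPM in NC4 against 324 to 541 CPM in the others. All 5 lay lower in Zelnorm tumours (median log2 -1.38), 2 of them without overlap, and none passed the test. At an unadjusted p under 0.05 in edgeR, 2 of the 5 lay lower. Fat cell markers (10 of 11 tested) summed to 364 to 1080 CPM in control and 180 to 322 CPM in Zelnorm tumours, without overlap of the sums. All 10 lay lower in Zelnorm tumours (median log2 -1.85), 7 of them without overlap, and none passed the test. At an unadjusted p under 0.05 in edgeR, 8 of the 10 lay lower, where 1.03% of all tested genes did. Skeletal muscle markers ran from 414 to 2730 CPM in control and from 96.8 (MBZ_254) to 6470 (MBZ_259) CPM in Zelnorm tumours. The part of these cells in the endothelial values was not tested.

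The proteins that hold endothelial cells together and cover their surface overlapped between the groups, and none of their 13 genes passed the test. Pecam1 (CD31, an adhesion molecule of endothelial junctions; ENSMUSG00000020717, chr11:106654217-106750628 in GRCm38) was at 235, 379 and 261 CPM in NC10, NC4 and NC9 and at 344, 197 and 276 CPM in MBZ_254, MBZ_257 and MBZ_259. Its control mean was 292 ± 76.4 CPM and its Zelnorm mean 272 ± 73.4 CPM (SD, n = 3; log2 -0.10, SE 0.26, unadjusted p = 0.718 in edgeR). The lowest and the highest Pecam1 library differed by 1.92-fold, more than the means did.

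Cdh5, the cadherin of endothelial junctions (VE-cadherin), followed the same order of tumours. It was at 228, 348 and 244 CPM in the controls and at 330, 169 and 276 CPM in the Zelnorm tumours, in the order used for Pecam1 (log2 -0.08, SE 0.28, unadjusted p = 0.776). Cldn5, the claudin of tight endothelial barriers, was at 21.3, 25.3 and 20.2 CPM against 34.8, 13.3 and 17.9 CPM (log2 -0.01, SE 0.33, unadjusted p = 0.978). The Zelnorm tumours thus held both the highest and the lowest Cldn5 level, and the controls lay between them.

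Plvap, which forms the diaphragms of fenestrated vessels and is abundant in tumour vessels, was at 177, 324 and 216 CPM in control and at 268, 147 and 233 CPM in Zelnorm tumours (log2 -0.15, SE 0.29, unadjusted p = 0.631). Emcn (endomucin, a sialomucin of capillaries and veins) was at 61.7, 71 and 58.7 CPM against 70.6, 48.1 and 87.8 CPM (log2 0.11, SE 0.22, unadjusted p = 0.629). Emcn was one of the 2 general genes highest in MBZ_259, the other being Nos3, the nitric oxide synthase of endothelium. In the other surface and junction genes (Esam, Icam2, Robo4, Egfl7, Ptprb, Mcam, Cd34 and Ly6c1) the log2 fold change ran from -0.78 for Ly6c1 to 0.09 for Mcam, with unadjusted p of 0.118 or more.

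Ly6c1, a surface protein of endothelial and some immune cells, varied most among the 38 genes. It was at 60.9, 170 and 71.5 CPM in control and 72, 32 and 71.7 CPM in Zelnorm tumours, a 5.33-fold range between NC4 and MBZ_257. Without NC4 its log2 fold change went from -0.78 to -0.17. Reads of Ly6c1 can be shared with its close copy Ly6c2, so its counts are uncertain. Ptprb, the receptor phosphatase that restrains Tek, varied least, by 1.48-fold, and 19 of the 38 genes varied by less than 2-fold.

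None of the 3 transcription factors of endothelial identity passed the test. Erg, an ETS factor that keeps endothelial genes on, was at 30, 29 and 30.9 CPM in control and at 38.6, 22.4 and 29.8 CPM in Zelnorm tumours (log2 0.02, SE 0.21). The 3 controls were nearly equal, while the Zelnorm tumours spread on both sides of them. The same held for Fli1, a related ETS factor also made by blood cells, with a mean of 30.9 ± 1.07 CPM in control against 32.0 ± 6.57 CPM. Sox18, a SOX factor of vessel and lymphatic development, was at 48.5 ± 10.8 CPM and 42.9 ± 8.18 CPM (log2 -0.18, SE 0.21).

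Among receptors, Tek (ENSMUSG00000006386, chr4:94739289-94874976 in GRCm38) had the smallest p of all 38 genes. Its level was 30.3, 55.7 and 48 CPM in NC10, NC4 and NC9 and 26.3, 23.1 and 36.5 CPM in MBZ_254, MBZ_257 and MBZ_259. The groups overlapped, because the control NC10 lay below the Zelnorm tumour MBZ_259. The means were 44.7 ± 13.0 and 28.6 ± 6.96 CPM (SD, n = 3; log2 -0.64, SE 0.27; edgeR unadjusted p = 0.0427, adjusted p = 1). With 1 library left out the fold change ran from -0.87 without NC10 to -0.45 without NC4, and over all alternatives the smallest adjusted p was 0.75.

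Tie1, the partner receptor of Tek, was nearer to equal, at 73.4, 119 and 88.9 CPM in control and 98.6, 59.6 and 85.8 CPM in Zelnorm tumours (log2 -0.20, SE 0.24, unadjusted p = 0.427). The ratio of Tek to Tie1 counts, which needs no scaling between libraries, was 0.413, 0.468 and 0.54 in control and 0.267, 0.388 and 0.425 in Zelnorm tumours. This ratio overlapped between the groups by NC10 and MBZ_259 alone. The other receptors, Eng (a co-receptor of the BMP and TGF-beta family), Calcrl with its partner Ramp2 (the adrenomedullin receptor), S1pr1 (which seals junctions) and Ednrb (an endothelin receptor), had log2 fold changes of -0.15 to 0.13. Nos3 was at 34.0 ± 1.33 and 34.0 ± 8.59 CPM.

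Stretches of 250 bases before the start site were read from the RefSeq promoter table (GRCm38) to show what these genes carry there; 23 of the 40 genes were in that table, with 29 start sites. The search covered both strands and 5 motifs, CCGGAAGT and the shorter AGGAAG for ETS factors, ACAAAG for SOX, TGTTTAC for FOX and GGGCGG for KLF and SP factors; none of the longer motifs contains a shorter one. AGGAAG lay in 48.3% of the 29 stretches and in 29.5% of 32851 stretches of all genes. ACAAAG lay in 24.1% against 16.5% and GGGCGG in 41.4% against 32.7%, while CCGGAAGT and TGTTTAC lay in 0 of 29, against 2.88% and 3.17% of all. A match is a run of letters, not a shown binding site. Tie1, Robo4 and Emcn are shown as general endothelial genes that hold AGGAAG, and Tek as the gene with the smallest p. All of these were lowest in MBZ_257, as were Mcam and Cldn5, whose stretches hold no AGGAAG. Letters in capitals match one of the 5 motifs on either strand, and each sequence is written 5′ to 3′ on the strand of the gene.
Tie1, chr4:118489850-118490099, minus strand: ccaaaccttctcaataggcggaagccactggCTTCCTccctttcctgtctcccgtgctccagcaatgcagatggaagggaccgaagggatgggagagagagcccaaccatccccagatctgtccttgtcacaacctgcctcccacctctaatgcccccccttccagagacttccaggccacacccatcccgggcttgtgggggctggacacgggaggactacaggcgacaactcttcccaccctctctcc
Robo4, chr9:37401722-37401971, plus strand: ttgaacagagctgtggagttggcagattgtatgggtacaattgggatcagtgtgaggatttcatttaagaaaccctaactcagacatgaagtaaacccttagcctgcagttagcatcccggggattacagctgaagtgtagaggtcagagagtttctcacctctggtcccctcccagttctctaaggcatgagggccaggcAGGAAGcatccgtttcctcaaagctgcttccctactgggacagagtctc
Emcn, chr3:137340828-137341077, plus strand: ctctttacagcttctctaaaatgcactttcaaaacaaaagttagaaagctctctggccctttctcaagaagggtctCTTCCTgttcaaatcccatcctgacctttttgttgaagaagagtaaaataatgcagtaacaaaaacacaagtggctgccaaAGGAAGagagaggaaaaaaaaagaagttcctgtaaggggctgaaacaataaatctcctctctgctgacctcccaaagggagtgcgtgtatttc
Tek, chr4:94739039-94739288, plus strand: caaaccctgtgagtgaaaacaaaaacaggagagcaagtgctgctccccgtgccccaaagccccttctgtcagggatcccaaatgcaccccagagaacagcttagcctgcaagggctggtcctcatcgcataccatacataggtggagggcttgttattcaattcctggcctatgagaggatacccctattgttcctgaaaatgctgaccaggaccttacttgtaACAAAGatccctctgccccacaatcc
Tie1 and Robo4 had 1 AGGAAG match each, Emcn had 2, and Tek had none, with 1 ACAAAG match near the start site.

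None of the 6 tip cell and angiogenic genes passed the test. Of these genes, 5 were highest in the Zelnorm tumour MBZ_254. Angpt2 (ENSMUSG00000031465, chr8:18690263-18741562) was at 55, 54.2 and 24.9 CPM in control and at 87.7, 46.4 and 38.4 CPM in Zelnorm tumours. MBZ_254 stood above all controls, while the other Zelnorm tumours lay within the control range. The means of 44.7 ± 17.2 and 57.5 ± 26.4 CPM gave a log2 fold change of 0.37 (SE 0.39; unadjusted p = 0.369 in edgeR), which was -0.08 without MBZ_254 and 0.07 without NC9.

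Esm1 (endocan, a proteoglycan that tip cells secrete) was at 34.6, 43.4 and 20.1 CPM in control and at 65.8, 26.8 and 23.9 CPM in Zelnorm tumours. Apln (apelin, a peptide that attracts and signals to neighbouring endothelium) was at 33, 61.8 and 30.6 CPM against 76.7, 25.3 and 33.6 CPM. Both were high in MBZ_254, next highest in NC4, and at or below 34.6 CPM in the other 4 libraries. Their log2 fold changes of 0.25 (SE 0.43, unadjusted p = 0.573) and 0.12 (SE 0.44, unadjusted p = 0.797) turned to -0.38 and -0.51 without MBZ_254, and both to 0.51 without NC4.

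Dll4, the Notch ligand of tip cells and arteries, was at 66.1, 53.3 and 41 CPM in control and at 76.4, 37.6 and 54.6 CPM in Zelnorm tumours (log2 0.08, SE 0.28, unadjusted p = 0.789). Notch1, the receptor it signals to, was at 54.4, 85.5 and 78.9 CPM against 87, 66.4 and 77.8 CPM (log2 0.08, SE 0.20, unadjusted p = 0.705). Angpt1, the Tek agonist, was at 17.3, 12.7 and 19 CPM against 13.2, 10.4 and 20.2 CPM (log2 -0.16, SE 0.28, unadjusted p = 0.601), and was the only one of the 6 not highest in MBZ_254. The ratio of Angpt2 to Angpt1 was 3.18, 4.27 and 1.31 in control and 6.63, 4.48 and 1.9 in Zelnorm tumours. It was thus lowest in the control NC9, next lowest in the Zelnorm tumour MBZ_259, and overlapped between the groups.

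Upstream sequences of 3 tip genes are given in the same form, as tip cell markers that were all highest in MBZ_254.
Apln, chrX:48034854-48035103, minus strand: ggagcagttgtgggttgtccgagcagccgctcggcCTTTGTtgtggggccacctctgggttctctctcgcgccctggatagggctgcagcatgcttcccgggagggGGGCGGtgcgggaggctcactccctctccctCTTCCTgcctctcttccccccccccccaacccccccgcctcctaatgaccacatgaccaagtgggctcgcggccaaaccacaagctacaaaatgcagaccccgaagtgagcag
Esm1, chr13:113209409-113209658, plus strand: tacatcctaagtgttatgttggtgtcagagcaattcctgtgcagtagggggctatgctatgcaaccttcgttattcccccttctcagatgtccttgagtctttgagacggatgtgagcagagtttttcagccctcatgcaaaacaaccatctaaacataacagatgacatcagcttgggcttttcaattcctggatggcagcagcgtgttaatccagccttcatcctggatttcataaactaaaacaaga
Dll4, chr2:119325534-119325783, plus strand: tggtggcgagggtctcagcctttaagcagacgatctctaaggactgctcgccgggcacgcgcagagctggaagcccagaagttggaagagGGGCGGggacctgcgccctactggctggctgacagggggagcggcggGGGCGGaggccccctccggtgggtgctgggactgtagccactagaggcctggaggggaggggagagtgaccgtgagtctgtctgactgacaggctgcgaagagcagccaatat
Apln carried 1 match of each of the SOX motif, the KLF and SP motif and the shorter ETS motif, Dll4 carried 2 of GGGCGG, and Esm1 carried none of the 5 motifs in this window.

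Tumour cells can secrete VEGF, and its human transcript VEGFA was at 793, 923 and 630 CPM of the human table in NC10, NC4 and NC9 and at 1330, 701 and 561 CPM in MBZ_254, MBZ_257 and MBZ_259. MBZ_254 and NC4 were thus the highest in VEGFA as they were in Apln, Esm1 and Notch1. They were also the highest in general endothelial genes such as Pecam1 (344 and 379 CPM) and Cdh5 (330 and 348 CPM), though not in Emcn. This order was therefore not particular to tip genes, and Notch1 is uncertain as a host signal. For Angpt2 and Dll4, NC10 came second to MBZ_254, and Angpt1 was highest in MBZ_259. VEGFA itself did not pass the test between groups (log2 0.14, SE 0.28; unadjusted p = 0.623 in edgeR). Of 16 other genes of tip cells and sprouting, 8 lay higher and 8 lower (median log2 0.00). Of these 16, 9 were highest in MBZ_254, against 20.8% of all tested mouse genes. In 6 of the 16, Angptl4 among them, the human gene had more counts than the mouse gene. Placental growth factor (Pgf) was at 21.2 CPM in MBZ_254 and at 3.52 to 9.72 CPM in the other libraries, and the secreted factor Angptl4 at 89.7 CPM in MBZ_254 and 70.9 CPM in NC4 against 22.4 to 41.9 CPM. Angptl4 is uncertain as a host signal, with 481 human and 358 mouse counts per library. Their part in the tip cell values was not tested. The VEGF receptors Kdr (185 ± 29.9 and 158 ± 26.0 CPM) and Flt1 (144 ± 10.7 and 151 ± 24.1 CPM) did not pass the test (unadjusted p = 0.271 and 0.686 in edgeR), nor did Unc5b, a netrin receptor of tip cells (log2 0.20, SE 0.20).

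Cxcr4, a chemokine receptor of tip cells that many immune cells also carry, had the smallest p of those 16 genes. It was at 46.8, 50.6 and 43.1 CPM in control and at 73.2, 54.8 and 78.1 CPM in Zelnorm tumours, with the 3 Zelnorm libraries above the 3 controls. Its log2 fold change was 0.55 (SE 0.17; edgeR unadjusted p = 0.0125, adjusted p = 1 after rounding), between 0.45 and 0.71 over all alternatives. The summed macrophage markers separated the same way, at 3640 to 4760 CPM in control and 4770 to 5110 CPM in Zelnorm tumours. The largest part of that sum was Lyz2 (log2 0.48, SE 0.20, unadjusted p = 0.0461 in edgeR). NC10 and MBZ_254 were at 4760 and 4770 CPM in the sum and at 1780 and 1830 CPM in Lyz2. Without Lyz2 the sums thus overlapped between the groups. Of the 10 markers 8 lay higher and 2 lower, namely Csf1r (log2 -0.12) and Mrc1 (log2 -0.11). The part of macrophages in the Cxcr4 value was not tested.

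**Figure D3:**
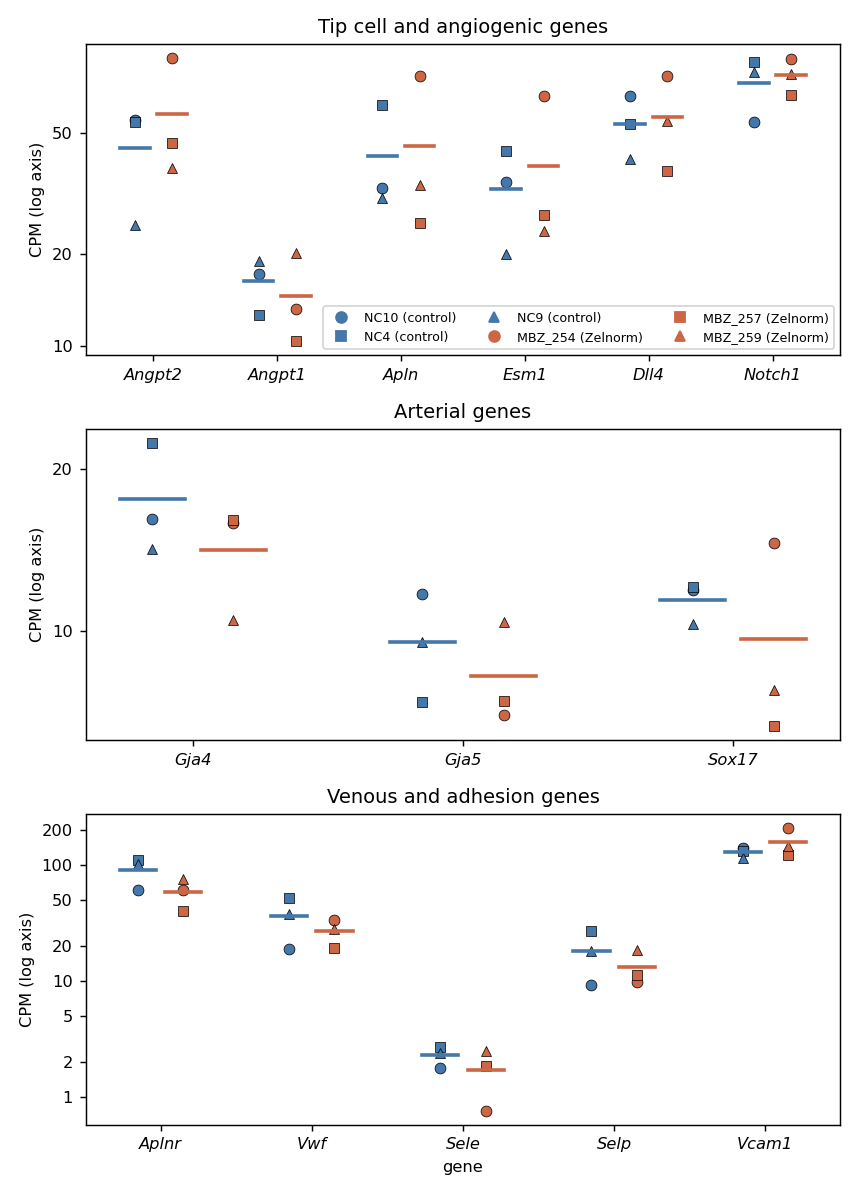
Level in CPM (log axis) of each tip and angiogenic, arterial and venous gene in the 6 libraries, with control in blue, Zelnorm in orange, a symbol for each library and a bar at the mean of each group. The groups overlap for all 14 genes; MBZ_254 is highest for Angpt2, Apln, Esm1, Dll4 and Notch1, and NC4 for Aplnr, Vwf, Sele and Selp.

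All 3 arterial genes had a lower mean in Zelnorm tumours, with log2 fold changes of -0.20 to -0.32, and none passed the test. Gja4, the gap junction protein connexin 37, was at 16.2, 22.4 and 14.2 CPM in control and at 15.9, 16.1 and 10.5 CPM in Zelnorm tumours (log2 -0.32, SE 0.26, unadjusted p = 0.248). Gja5, the connexin of large arteries, was at 11.7, 7.39 and 9.56 CPM against 6.99, 7.4 and 10.4 CPM (log2 -0.20, SE 0.28, unadjusted p = 0.492). Sox17, a factor that sets arterial fate, was at 11.9, 12.1 and 10.3 CPM against 14.6, 6.66 and 7.77 CPM (log2 -0.23, SE 0.32, unadjusted p = 0.493).

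The 3 arterial genes did not share an order of tumours: Gja4 was highest in NC4, Gja5 in NC10 and Sox17 in MBZ_254. Without MBZ_254 the fold change of Sox17 was -0.66, and without MBZ_257 it was -0.01. Of 13 other arterial genes 12 were tested, 4 higher and 8 lower (median log2 -0.02), with the smallest p in Fbln5, an elastic fibre protein with more human than mouse counts (484 and 415 per library; log2 -0.22, SE 0.20, unadjusted p = 0.296), and in the chemokine Cxcl12 (log2 -0.44, SE 0.41, unadjusted p = 0.322). In 4 of the 12, Fbln5 among them, the human gene had more counts than the mouse gene. Bmx, the gene not tested, had 4 to 12 counts per library.

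Of the 5 venous and adhesion genes, 4 had a lower mean in Zelnorm tumours and none passed the test. Aplnr, the apelin receptor of veins and sprouting endothelium (ENSMUSG00000044338, chr2:85136225-85139923), was at 60.9, 110 and 101 CPM in control and at 60.5, 39.8 and 75.7 CPM in Zelnorm tumours. The control NC10 lay among the Zelnorm tumours and the other controls lay above all of them. The means were 90.7 ± 26.2 and 58.6 ± 18.0 CPM (log2 -0.63, SE 0.29; edgeR unadjusted p = 0.0635), and the fold change ran from -0.86 without NC10 to -0.40 without MBZ_257.

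Vwf, the clotting glycoprotein that venous endothelium stores, was at 18.8, 51.6 and 37.4 CPM in control and at 33.3, 19.2 and 28.1 CPM in Zelnorm tumours (log2 -0.42, SE 0.36, unadjusted p = 0.281). Selp (P-selectin, which slows leukocytes on veins) was at 9.14, 26.7 and 18.2 CPM against 9.78, 11.3 and 18.6 CPM (log2 -0.44, SE 0.40, unadjusted p = 0.301). For both, NC10 was the lowest library and NC4 the highest, so the controls held both ends of the range. Without NC4 their fold changes were -0.06 and -0.05.

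Sele (E-selectin, switched on by inflammatory cytokines) was near the floor of detection, at 1.76, 2.72 and 2.39 CPM in control and 0.762, 1.85 and 2.51 CPM in Zelnorm tumours (log2 -0.42, SE 0.50, unadjusted p = 0.419). Vcam1, an adhesion molecule of inflamed endothelium that fibroblasts and macrophages also make, was the one gene of the 5 with a higher Zelnorm mean. It was at 139, 132 and 114 CPM in control and 209, 121 and 146 CPM in Zelnorm tumours (log2 0.31, SE 0.22, unadjusted p = 0.202), with a log2 fold change of 0.05 without MBZ_254. Vwf and Selp are also stored in platelets, and 4 of 9 platelet markers passed the filter, with a summed level of 60 to 81.5 CPM in control and 41.8 to 80.8 CPM in Zelnorm tumours. Pf4, a platelet chemokine, was at 15 to 25 CPM and Itgb3, an integrin that other cells share, at 25.5 to 54.3 CPM over the 6 libraries, while Gp9 had 0 or 1 count and Gp6 0 to 3 counts. The part of platelets in the Vwf and Selp values was not tested.

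Of 9 other venous genes, 2 lay higher and 7 lower (median log2 -0.11), and 7 of the 9 were highest in NC4, against 18.3% of all tested mouse genes. In 3 of the 9 the human gene had more counts than the mouse gene. Lrg1, a secreted glycoprotein of venous and inflamed endothelium, was at 33.7, 74 and 46.8 CPM in control and at 33.8, 31.3 and 33.1 CPM in Zelnorm tumours (log2 -0.65, SE 0.27; edgeR unadjusted p = 0.042). Its fold change was -0.30 without NC4, and the control NC10 lay among the Zelnorm tumours. Ackr1, the chemokine-binding receptor of venules, was at 5.98 ± 2.61 and 4.14 ± 1.17 CPM (log2 -0.53, SE 0.40). Klf4, a factor induced by blood flow, had the smallest p of the 28 further general endothelial genes (log2 -0.56, SE 0.22; edgeR unadjusted p = 0.0373), and of these 28 genes 10 lay higher and 18 lower. Human KLF4 had the higher counts (532 human and 162 mouse counts per library), so Klf4 is uncertain as a host signal.

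Lymphatic endothelium was barely sampled. Prox1, the factor that sets lymphatic identity, had 6, 7 and 10 counts in the controls and 2, 1 and 13 counts in the Zelnorm tumours. Mmrn1 (multimerin, of lymph vessels and platelets) had 5, 2 and 0 counts against 10, 0 and 2 counts. The human PROX1 gene had 2 to 9 counts per library. A count of 0 allows up to 3 counts, so differences in Mmrn1 were not detectable at this depth. Of 8 other lymphatic genes 7 were tested, 4 higher and 3 lower, with the smallest p in Pdpn, podoplanin, which fibroblasts also make (log2 -0.45, SE 0.38, unadjusted p = 0.269). Lyve1, a hyaluronan receptor that some macrophages share, was at 13, 36 and 10.4 CPM in control and 16.4, 1.48 and 18.5 CPM in Zelnorm tumours (log2 -0.68, SE 0.76), and Flt4, the receptor of VEGF-C, at 45.3 ± 4.78 and 46.6 ± 10.9 CPM, though human FLT4 had the higher counts (519 human and 349 mouse counts per library).

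Set against endothelial RNA, the groups still overlapped. Counts were divided by the sum of 8 core genes (Cdh5, Tie1, Esam, Erg, Robo4, Egfl7, Ptprb and Tek), which held 2837 counts in MBZ_257 and 4169 to 7396 in the others. Among these core genes, Egfl7 had more human than mouse counts (759 and 569 per library), and Tek itself lay lower in Zelnorm tumours (log2 -0.64). On this scale Angpt2 was at 8.23, 5.65 and 3.39 counts per 100 core counts in control and at 10.1, 8.85 and 5.04 in Zelnorm tumours, and Aplnr at 9.11, 11.5 and 13.8 against 6.99, 7.58 and 9.92. The Zelnorm tumours were thus on the high side for Angpt2 and the low side for Aplnr, with 2 controls inside the Zelnorm range for Angpt2 and 1 for Aplnr. Refitted with this scaling, edgeR gave log2 fold changes of 0.48 for Angpt2 (unadjusted p = 0.246), -0.49 for Aplnr (unadjusted p = 0.127) and -0.25 for Vwf, all with an adjusted p of 0.998. Pecam1, which is no core gene, was at 35.2 to 39.5 per 100 core counts in control and at 36.2 to 39.8 in Zelnorm tumours, so its spread between tumours was mostly shared with the core genes.

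**Figure D4:**
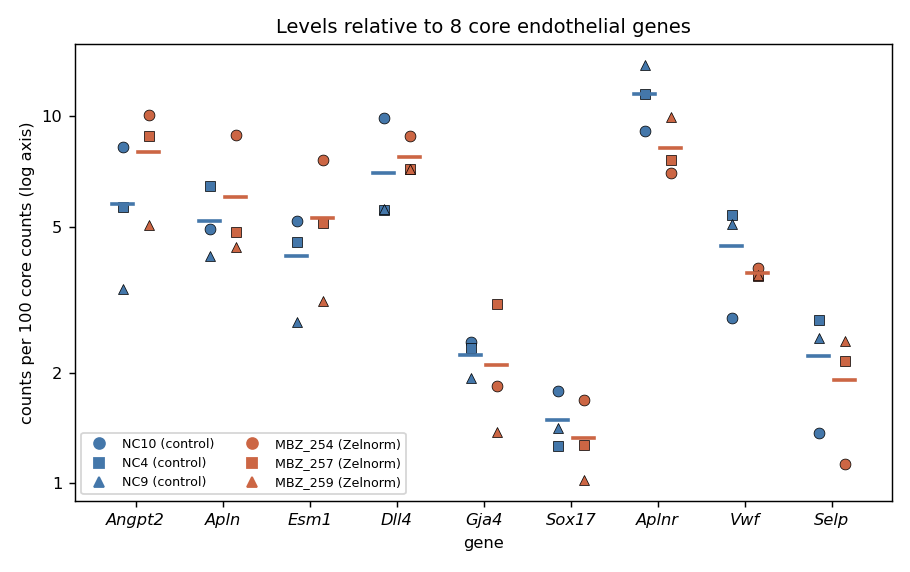
Counts of 9 genes per 100 counts of the 8 core endothelial genes (log axis) in each library, control in blue and Zelnorm in orange, with bars at group means. Angpt2 lies at 3.39 to 8.23 in control and 5.04 to 10.1 in Zelnorm tumours, Aplnr at 9.11 to 13.8 and 6.99 to 9.92, and no gene separates the groups.

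Targets of BMP and Notch signals, which endothelial cells read to choose between stalk and tip, were 3 higher and 8 lower of 11 tested (median log2 -0.03). Id2, an inhibitor of differentiation, was highest (0.45, SE 0.30) and Bmper, a BMP-binding protein, lowest (-0.39, SE 0.27). Id1, the classic BMP target in endothelium, was at -0.28 (SE 0.19). In 8 of the 11, Id1 and Id2 among them, the human gene had more counts than the mouse gene (3990 human and 172 mouse counts per library for Id1), so these are uncertain as host signals.

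Compared per kilobase of exon, the most abundant of the 38 genes were Plvap (115 CPM per kilobase over the 6 tumours), Mcam (88.6), Cdh5 (63.2), Ly6c1 (47.6), Pecam1 (45.3) and Eng (44.1). The rarest were Sele (0.687), Gja5 (1.55), Vwf (1.95) and Sox17 (2.21). Plvap, of fenestrated vessels, was thus far above the connexins of arteries, Gja4 at 9.43 and Gja5 at 1.55. On this scale Angpt2, Apln, Esm1 and Dll4 lay close together, at 13.8, 13.8, 17.1 and 14.2.

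Human transcripts of the same symbol could be counted in the mouse table, so their counts were compared. In 2 of the tested genes the human mean count was above the mouse one: Notch1 (1040 human and 575 mouse counts per library) and Egfl7 (759 and 569). Egfl7, a matrix protein of vessel walls, and Notch1 are therefore uncertain as host signals. In 24 of 36 tested genes with a human gene of that symbol, the human mean was under 10% of the mouse mean.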

How the data were processed

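The authors deposited 1 table of human and 1 of mouse genes, with estimated counts in each cell. The submitters' processing notes name the builds GRCm38 and GRCh38 and the tools StringTie, HISAT2, edgeR and DESeq2, with no version or role. The sources used here do not say how reads were divided between the species. Of the mouse values above 0, 27% were not whole, and counts were rounded. Rows without a gene name (856 mouse rows, 0.317% to 0.468% of a library) stayed out.

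Zelnorm was compared with control over all mouse genes with edgeR 4.0.16 in R 4.3.3 (filterByExpr, TMM, quasi-likelihood test, two-sided, Benjamini-Hochberg). The SE comes from the F statistic. Alternatives were RLE scaling, scaling to both tables or to 8 core genes, no filter, DESeq2 1.42.0, limma-voom (limma 3.58.1) and leaving out each library. Coordinates and exon lengths are from GENCODE vM21 (GRCm38). Members, roles and lists were chosen with earlier results of these data known, and the motif AGGAAG and human VEGFA were added after values were seen. Fully described were all tested tip, arterial and venous genes, 7 reference genes, and any gene with an unadjusted p under 0.05; up to 3 genes with the smallest p came from each further list, and other names were chosen after their values were seen. Columns carry a group prefix but no replicate number of the labels. Intervals are not given, and floors cover counting error only.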

Additional observations from a re-analysis of the deposited data

How the results depend on the processing

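Of 484 pairs of a gene (the 38 tested genes, Cxcr4, Klf4 and Lrg1) and an alternative, 0 passed the threshold of an adjusted p under 0.05, and 55 changed sign, of which 4 had a value more than 1 SE from 0, each without MBZ_254. With 1 library left out, Icam2 ran from -0.30 to 0.28, Erg from -0.20 to 0.21, Apln from -0.51 to 0.51 and Esm1 from -0.38 to 0.51. The number of mouse genes called was 0 as reported, with 253 at an unadjusted p under 0.05, and was 2 with no count filter and 6 with DESeq2, none of them among the 38. The number of the 38 genes higher in Zelnorm tumours was 15 as reported and ran from 2 to 23 when 1 library was left out. Over the same 6 fits, the median of their fold changes lay between -0.27 (without MBZ_254) and 0.09 (without MBZ_257). Scaling to the 8 core genes moved the median of all genes from 0.02 to 0.17, and 16 of the 30 remaining endothelial genes then lay higher. No paired analysis was possible because the columns carry no replicate numbers. The cause of these shifts was not tested. With 15.3 counts a library, Sele is limited by depth.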
